A study of Mus musculus with 10 samples.

Results

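The Hedgehog pathway genes of the embryonic mouse kidney described here are Shh, Ihh, Dhh, Ptch1, Smo, Gli1, Gli2, Gli3 and Hhip. They were chosen by gene symbol as the ligands, receptors, inhibitor and transcription factors at the core of the pathway, and all 9 were found among the 35663 entries of the expression table. RNA-seq had been performed on whole kidneys of C57/b6 embryos at E13.5. The libraries fall into 4 wild-type kidneys, 3 Foxd1GC controls, labelled Foxd1-Cre, and 3 Ntn1SPKO mutants, labelled Foxd1-Cre with Ntn1c/c, numbered within each group. Control and mutant kidneys share the Foxd1GC allele, a knock-in that makes Cre in cortical stromal progenitors at the cost of 1 copy of Foxd1, and only the mutants are labelled as carrying Ntn1c/c, the floxed Ntn1 alleles. Cre acts in the stromal lineage alone, so other cells of a mutant kidney keep the Ntn1 gene itself. The paper detected no Ntn1 protein in Ntn1SPKO kidneys. The labels do not say whether the libraries of a group came from separate embryos, so p-values measure only the spread between these samples.

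Hedgehog ligands are secreted proteins that bind Ptch1. Without a ligand, Ptch1 holds the membrane protein Smo inactive, and once a ligand is bound, Smo acts through the primary cilium on the Gli transcription factors, which then switch on targets that include Ptch1, Gli1 and Hhip themselves. In the developing kidney and ureter, Shh is made by the epithelium of the ureteric stalk and medullary collecting ducts, and the surrounding mesenchyme that becomes ureteric smooth muscle and medullary stroma responds to it.

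The 3 ligand genes are paralogs, and their coding sequences are printed here where they are most alike, because a low value of 1 ligand could be read from another if their reads were exchanged. The 60-base windows lie in exon 1 of each gene in GRCm38 and are read on the minus strand at chr5:28466471-28466530 for Shh, chr1:74950910-74950969 for Ihh and chr15:98897980-98898039 for Dhh. Capitals mark bases that are the same in all 3 genes.
Shh: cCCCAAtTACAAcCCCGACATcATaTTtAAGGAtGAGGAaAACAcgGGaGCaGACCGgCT
Ihh: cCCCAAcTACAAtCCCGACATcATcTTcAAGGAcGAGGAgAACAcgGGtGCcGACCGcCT
Dhh: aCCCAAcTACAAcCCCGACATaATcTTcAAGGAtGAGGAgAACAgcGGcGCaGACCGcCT
Of the 60 bases, 47 were the same in all 3 genes, and the longest unbroken run of shared bases was 8. Ihh had 51 of the bases of Shh, and Dhh had 50. Words of 31 bases were then compared between each member and the coding sequences of all other genes. None of the 1281 words of Shh, the 1203 of Ihh or the 1158 of Dhh occurred in another gene, and the same held for the longest coding sequence of each of the other 6 members.

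The 10 libraries had summed levels of 795829 to 1002638 FPKM (fragments per kilobase of coding sequence, scaled to library size). Depth, judged from how finely low values were stepped, was about 26.3 to 31.2 M fragments per library. Ntn1, the deleted gene, was at 10.7 to 16.3 FPKM in the 3 Ntn1SPKO libraries, 24.2 to 51.4 FPKM in the controls and 27.1 to 46.3 FPKM in wild type. Foxd1 was at 14.2 to 15.4 FPKM in mutants, 14.6 to 25.6 FPKM in controls and 21.3 to 30.7 FPKM in wild type. Y-linked transcripts had a mean of 22.2 to 24.5 FPKM in wild-type replicate 3, control replicate 2 and all 3 mutants, and at most 0.254 FPKM in the other 5 libraries. Control replicate 3 stood apart from the other 9 libraries in its marker genes. The summed level of 14 markers of urothelium and ureteric stalk was 72.5 FPKM there and 182 to 221 FPKM elsewhere, and that of 8 skeletal muscle markers was 357 FPKM against 6.78 to 91.2 FPKM. Where leaving this library out moved the log2 fold change of a member by over 0.1, the value without it is given, and the counts over the pathway lists are given both ways.

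Levels differed widely among the members, as the plot of members by library shows. Over the 10 libraries, Smo had the highest mean at 55.6 FPKM, followed by Ptch1 at 37.1 FPKM, Gli3 at 24.9 FPKM, Gli1 at 12.1 FPKM and Gli2 at 8.93 FPKM. Shh at 1.19 FPKM, Hhip at 0.994 FPKM, Dhh at 0.178 FPKM and Ihh at 0.0728 FPKM were lower. FPKM are per length, so levels can be compared between genes, and the mean of Smo was at or above 94.1% of all entries, that of Ptch1 90.9% and that of Shh 63.8%. Smo exceeded Ptch1, Ptch1 exceeded Gli3, Gli3 exceeded Gli1 and Gli1 exceeded Gli2 in 10 of 10 libraries, although the ranges of Gli1 and Gli2 overlapped. The order of Shh over Hhip held in 7 of 10 libraries and that of Dhh over Ihh in 9 of 10, and the ranges of both pairs overlapped. Smo was the steadiest member, with a coefficient of variation over all libraries of 5.5%, and Shh was the most variable of the members with a mean of at least 0.5 FPKM, at 37.8%.

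**Figure D1:**
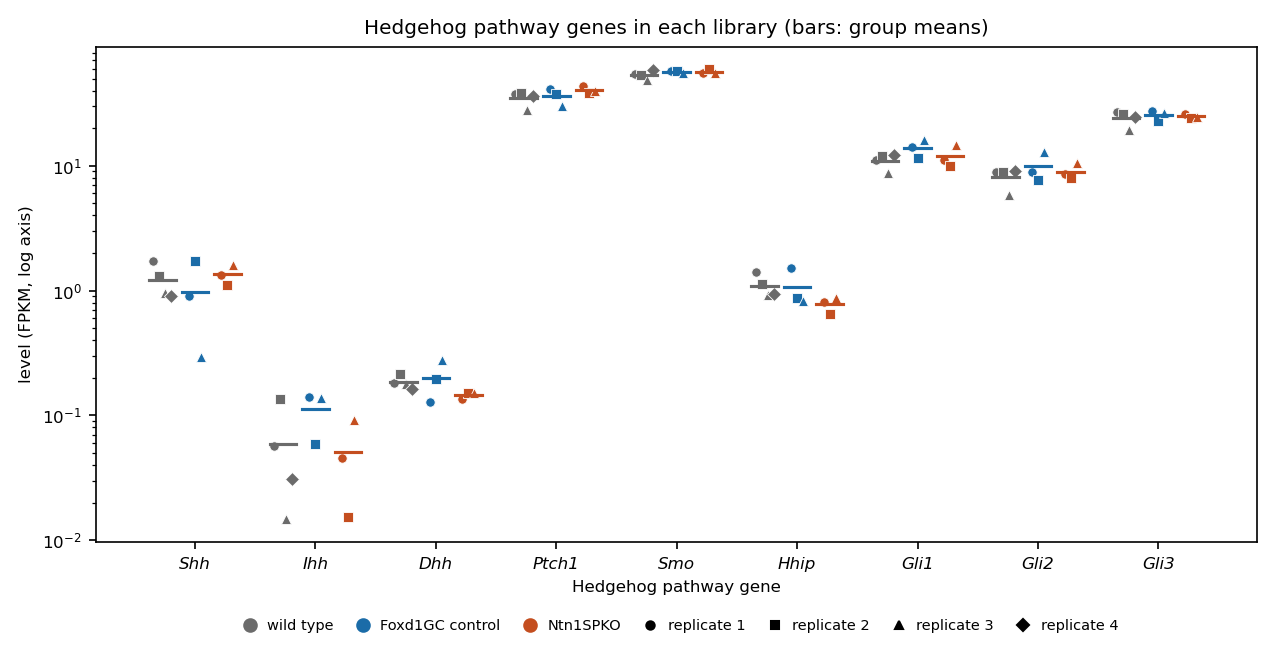
Level in FPKM (log axis) of each Hedgehog pathway gene in the 4 wild-type, 3 Foxd1GC control and 3 Ntn1SPKO libraries, with symbols for replicates and bars for group means. Shh in control replicate 3 lies at 0.292 FPKM, below the other 9 libraries, and the 3 Ntn1SPKO values of Hhip lie below the 4 wild-type values.

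Members were compared between groups with limma on log2(FPKM+0.1), fitted over all genes whose mean reached 0.5 FPKM in the libraries compared. To be called, a gene needed a Benjamini-Hochberg adjusted p below 0.1 and a change of 2-fold or more. Of the 9 members, 7 were tested, and Ihh and Dhh were below the limit in each comparison. Between Ntn1SPKO and Foxd1GC control kidneys, which share the Cre allele and differ in Ntn1, 0 of 7 members were called, beside 0.055% of all 14550 genes tested. By limma, 0 of 7 had an unadjusted p under 0.05 (10.7% of all genes) and 0 of 7 had groups that did not overlap (19.9%). Between Ntn1SPKO and wild-type kidneys, 0 of 7 were called (0.0485% of all genes), 0 had an unadjusted p under 0.05 (5.76%) and 1, Hhip, had groups that did not overlap (7.1%). Between Foxd1GC control and wild-type kidneys, 0 of 7 were called (0.00685% of all genes), 0 had an unadjusted p under 0.05 (7.06%) and 0 did not overlap (8.09%). Every comparison shares a group with each of the others, so the 3 sets of differences are not independent. The median log2 fold change of the 7 members was −0.043, 0.11 and 0.084 in the 3 comparisons, against 0.0067, 0.0034 and −0.0072 for all genes tested. Because whole kidneys were measured, fewer cells of a type and less RNA per cell cannot be told apart in any of these values.

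**Figure D2:**
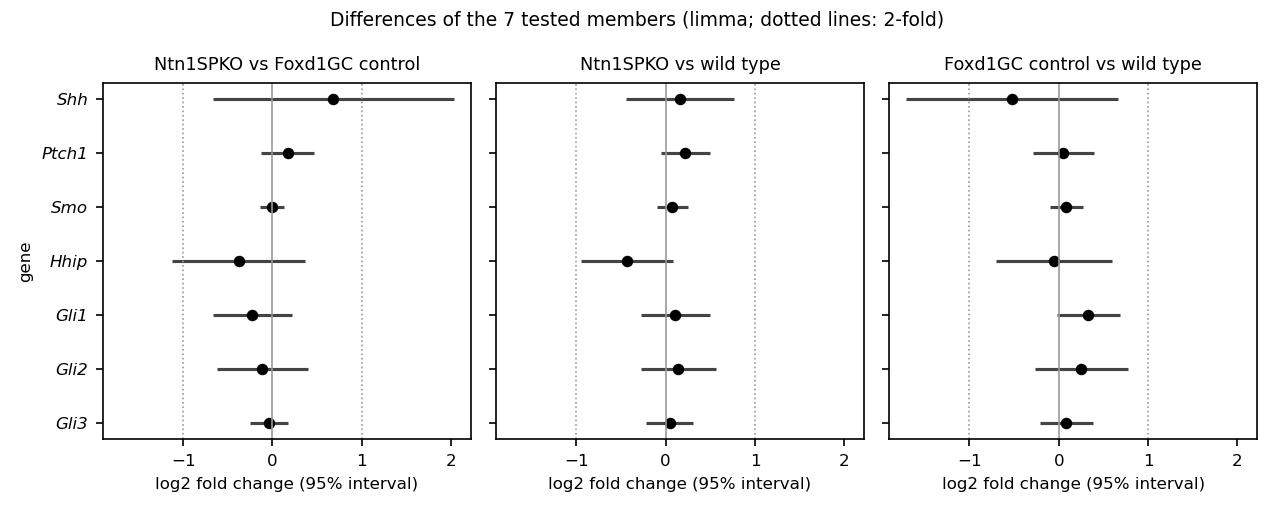
Log2 fold change (points) with 95% intervals (lines) of the 7 tested members in the 3 comparisons, from limma on log2(FPKM+0.1), with dotted lines at a 2-fold change. All 21 intervals include 0, and the widest is that of Shh between Ntn1SPKO and Foxd1GC control kidneys, from −0.67 to 2.03.

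Shh, the ligand of the ureteric epithelium (ENSMUSG00000002633.4), maps to chromosome 5, positions 28456815 to 28467256 of GRCm38. Shh was at 1.74, 1.30, 0.962 and 0.899 FPKM in the 4 wild-type libraries, 0.910, 1.72 and 0.292 FPKM in the 3 controls and 1.34, 1.10 and 1.60 FPKM in the 3 mutants. The groups overlapped, and the lowest and the second highest of the 10 values both belonged to controls. Shh rested on about 10.1 fragments in control replicate 3 and 34.9 to 71.1 in the other libraries. Shh was higher in Ntn1SPKO than in control kidneys by a log2 fold change of 0.68 (SE 0.56, 95% interval −0.67 to 2.03), with a limma adjusted p of 0.579. Without control replicate 3, that difference was 0.084 (SE 0.33), and without control replicate 2 it was 1.19 (SE 0.47, adjusted p=0.212). Against wild type, the mutants were higher by 0.16 (SE 0.26, interval −0.45 to 0.77, limma adjusted p=0.956). Controls were lower than wild type by a log2 fold change of −0.52 (SE 0.51, interval −1.71 to 0.67, limma adjusted p=0.754), which became 0.076 without control replicate 3.

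The low Shh of control replicate 3 came with low levels of ureteric epithelial genes. Of 9 markers of urothelium and ureteric stalk with a mean of at least 0.5 FPKM, 7 had their lowest value of the 10 libraries there. The share of all genes lowest in this control is not given here. Krt5, a keratin of basal epithelial cells, and Trp63, a transcription factor of the same cells, belong to the same list of 14 but were at their highest there, Krt5 at 2.02 FPKM against 0.121 to 1.25 FPKM and Trp63 at 1.49 FPKM against 0.138 to 0.597 FPKM. Calb1, the calcium-binding protein calbindin of the ureteric tree, was at 16.4 FPKM in this control and at 57.4 to 74.9 FPKM in the other 9 libraries. Gata3, a transcription factor of the ureteric lineage, was at 9.10 FPKM against 29.5 to 45.4 FPKM, and Krt18, a keratin of simple epithelia, at 18.0 FPKM against 33.6 to 44.6 FPKM. The uroplakins of mature urothelium, Upk1a, Upk1b, Upk2 and Upk3a, stayed below 0.5 FPKM in all libraries, and Upk2 was listed at 0 in 8 of them. By group, the summed level of these 14 markers was 189 to 214 FPKM in wild type, 72.5 to 205 FPKM in controls and 199 to 221 FPKM in mutants. Shh per 100 FPKM of the summed markers was 0.403 in control replicate 3 and 0.449 to 0.845 in the other 9 libraries. Per 100 FPKM of Cdh1 alone, a cadherin of epithelia on the same list, Shh was 6.6 in control replicate 3. That value lay inside the range of the other 9 libraries, 4.6 to 8.8. Cdh1 was chosen after its values had been seen, and Shh per each of the other markers is not given here. The part of ureteric epithelial cells in the Shh values was not tested.

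**Figure D3:**
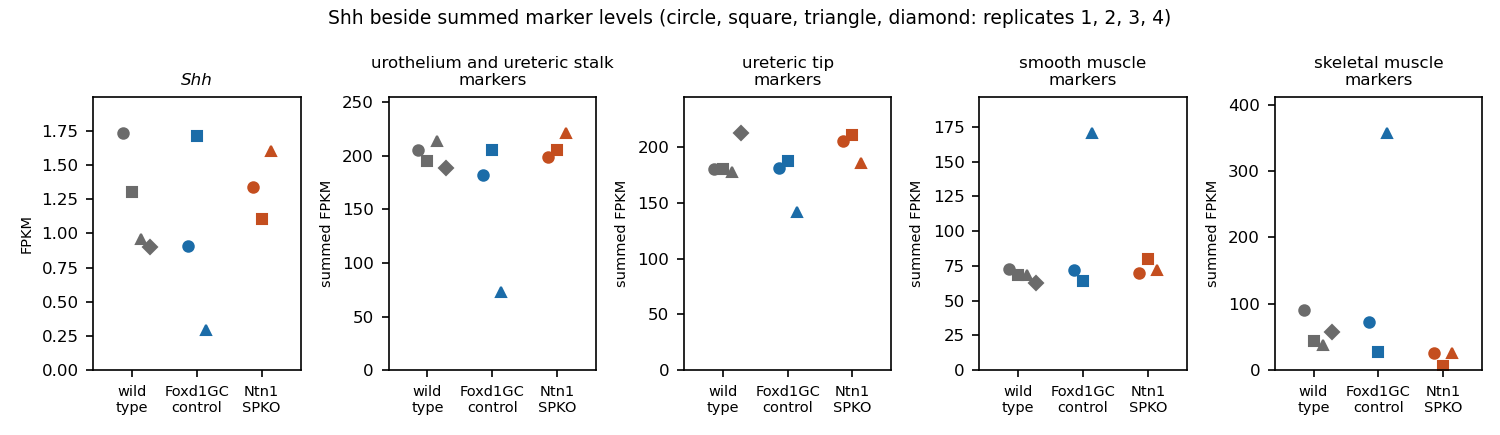
Shh in FPKM and the summed FPKM of markers of urothelium and ureteric stalk, ureteric tip, smooth muscle and skeletal muscle in each library, by group, with symbols for replicates and all axes from 0. Control replicate 3 (blue triangle) has the lowest Shh and the lowest sums of both ureteric lists, at 72.5 and 142 FPKM, and the highest sums of both muscle lists, at 171 and 357 FPKM. Of the 5 ureteric tip markers, 3 are lowest there, and the rest lie inside the range of the other libraries.

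Ihh, the ligand best known from growing cartilage (chromosome 1, from 74945315 to 74951672), was near the limit of detection. It was at 0.0569, 0.135, 0.0146 and 0.0309 FPKM in wild type, 0.141, 0.0591 and 0.137 FPKM in controls and 0.0458, 0.0152 and 0.0919 FPKM in mutants. These values stand for roughly 0.539 to 5.2 fragments per library, so differences in Ihh between the groups were not detectable at this depth. Dhh, the ligand of Schwann and Sertoli cells (chromosome 15, from 98891152 to 98898540), was at 0.182, 0.216, 0.179 and 0.163 FPKM in wild type, 0.129, 0.197 and 0.275 FPKM in controls and 0.136, 0.152 and 0.150 FPKM in mutants. All 3 mutant values of Dhh were below the lowest wild-type value (groups did not overlap for 7.1% of all genes tested). The exact two-sided permutation p was 0.0571, the smallest that 3 libraries against 4 can give. The nearest values, 0.152 and 0.163 FPKM, were less than 1 fragment apart (1 fragment is about 0.0269 to 0.032 FPKM). The mutant values of Dhh lay inside the range of the controls (exact permutation p=0.4). Values of Dhh rest on about 4.48 to 8.6 fragments per library. The summed level of 6 markers of Schwann cells and neural crest, where Dhh is made in nerves, was 9.84 to 14.1 FPKM in wild type, 9.72 to 12.3 FPKM in controls and 11.6 to 12.4 FPKM in mutants, with Foxd3 below 0.5 FPKM throughout. Their part in the Dhh values was not tested.

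Ptch1, the Hedgehog receptor (ENSMUSG00000021466.12), lies on chromosome 13 from 63508328 to 63573598. It was at 37.4, 38.6, 28.0 and 36.0 FPKM in wild type, 41.1, 37.6 and 30.2 FPKM in controls and 43.4, 38.3 and 39.9 FPKM in mutants. Wild-type replicate 3 and control replicate 3 were the lowest, and 2 of 3 mutants exceeded every wild-type value. The log2 fold change of Ptch1 was 0.17 against controls (SE 0.12, interval −0.13 to 0.47, limma adjusted p=0.534) and 0.22 against wild type (SE 0.12, interval −0.055 to 0.50, limma adjusted p=0.947). Without control replicate 3, the former was 0.044, and without wild-type replicate 3, the latter was 0.12. Controls differed from wild type by 0.051 (SE 0.15), or by 0.18 without control replicate 3.

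Smo, the transducer that Ptch1 holds in check (ENSMUSG00000001761.7, chromosome 6 from 29735503 to 29761365), was at 54.7, 53.1, 48.7 and 58.7 FPKM in wild type, 57.4, 57.4 and 55.8 FPKM in controls and 55.7, 59.1 and 55.1 FPKM in mutants. The groups overlapped, and no library was more than 1.21-fold above another. The difference between mutants and controls was −0.0066 on the log2 scale (SE 0.055), and its 95% interval spans folds of 0.909 to 1.09. Intervals for Smo against wild type ran from −0.099 to 0.25 in mutants and from −0.10 to 0.27 in controls.

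Hhip, a membrane protein that binds and sequesters Hedgehog ligands (ENSMUSG00000064325.4), lies on chromosome 8 from 79965851 to 80058006. It was at 1.40, 1.12, 0.923 and 0.934 FPKM in wild type, 1.51, 0.877 and 0.83 FPKM in controls and 0.810, 0.653 and 0.876 FPKM in mutants. All 3 mutant values were below the lowest wild-type value, whereas mutants and controls overlapped, with control replicate 1 well above the other 5 libraries. Hhip was lower in Ntn1SPKO than in wild-type kidneys by a log2 fold change of −0.43 (SE 0.22, interval −0.95 to 0.086), with an unadjusted limma p of 0.0902 and an adjusted p of 0.947. The exact two-sided permutation p was 0.0571, again the smallest possible. Against controls, the difference was −0.38 (SE 0.31, interval −1.12 to 0.37, limma adjusted p=0.578), which was −0.12 without control replicate 1 and −0.52 without control replicate 3. Controls and wild type differed by −0.055 (SE 0.28), or by 0.089 without control replicate 3. Hhip rested on about 41.1 to 93.1 fragments per library.

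Ratios within a library compare the targets without regard to scaling between libraries, and 6 were computed (4 are in the plot of ratios). The ratio of Hhip to Ptch1 was 0.0374, 0.0291, 0.0330 and 0.0259 in wild type, 0.0369, 0.0233 and 0.0275 in controls and 0.0187, 0.0171 and 0.0219 in mutants. The 3 mutant ratios were below those of all 7 other libraries. This ratio was singled out after its values had been seen and carries no test, and its components each missed the threshold. For Gli1 to Ptch1, the ratio was 0.528 in control replicate 3 and 0.255 to 0.369 elsewhere. The other ratios overlapped between all groups or, for Gli1 to Gli3, separated controls (0.506 to 0.599) from wild type (0.414 to 0.490), with mutants spanning 0.408 to 0.603.

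**Figure D4:**
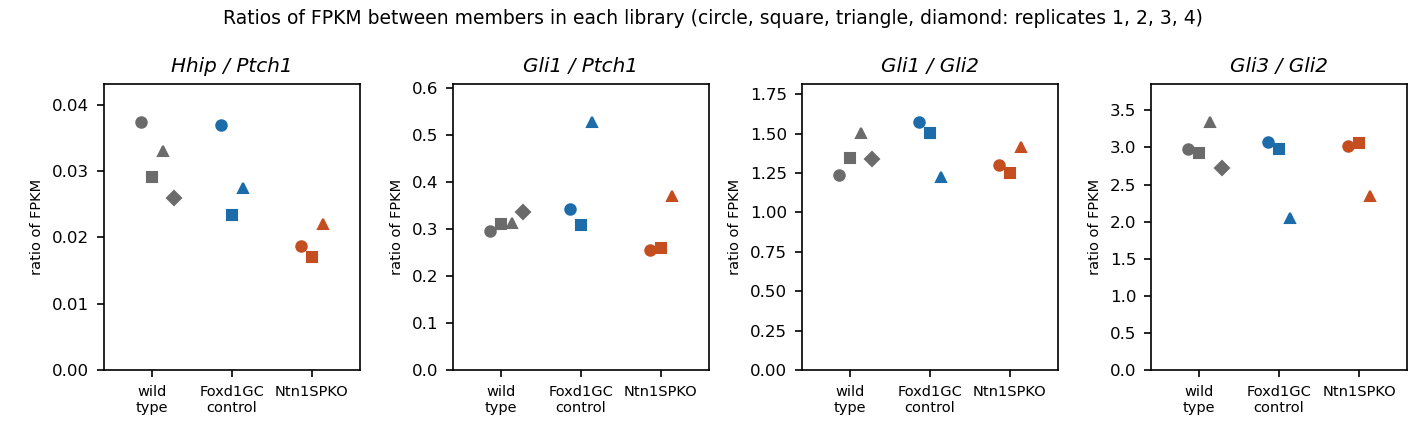
Ratio of FPKM (axes from 0) of Hhip to Ptch1, Gli1 to Ptch1, Gli1 to Gli2 and Gli3 to Gli2 in each library, by group, with symbols for replicates. The ratio of Hhip to Ptch1 is 0.0171 to 0.0219 in Ntn1SPKO libraries and 0.0233 to 0.0374 in the others.

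Gli1, the activator whose transcription is a common readout of the pathway (ENSMUSG00000025407.7), lies on chromosome 10 from 127329882 to 127341974. It was at 11.1, 12.0, 8.75 and 12.1 FPKM in wild type, 14.1, 11.6 and 15.9 FPKM in controls and 11.1, 9.92 and 14.7 FPKM in mutants. The groups overlapped, with control replicate 3 highest and wild-type replicate 3 lowest. Mutants were lower than controls by a log2 fold change of −0.22 (SE 0.18, interval −0.66 to 0.21, limma adjusted p=0.574) and higher than wild type by 0.11 (SE 0.17, interval −0.28 to 0.49, limma adjusted p=0.956). The former was −0.12 without control replicate 3, −0.35 without control replicate 2, −0.10 without mutant replicate 2 and −0.39 without mutant replicate 3. Controls were higher than wild type by 0.33 (SE 0.15, interval −0.024 to 0.69), with an unadjusted limma p of 0.0634 and an adjusted p of 0.665. Without control replicate 3, this difference was 0.23, and without control replicate 2 it was 0.46 (limma adjusted p=0.275). With embryo sex as a covariate, it was 0.37 (limma adjusted p=0.436). Markers of red blood cells were high in the same libraries as Gli1. The summed level of 6 erythroid markers was 12257 FPKM in control replicate 3, 12590 FPKM in mutant replicate 3 and 12049 FPKM in control replicate 1, the 3 libraries with the most Gli1, and 3271 to 8091 FPKM in the other 7. By group, it was 3331 to 8091 FPKM in wild type, 5480 to 12257 FPKM in controls and 3271 to 12590 FPKM in mutants. In controls against wild type, 6 of 6 markers were higher with an unadjusted limma p under 0.05 (beside 7.06% of all genes). The lowest limma adjusted p of these markers was 0.665, and 0 of 6 had groups that did not overlap (beside 8.09%). Their part in the Gli1 values was not tested.

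Gli2, the main activator at the start of the response (ENSMUSG00000048402.14, chromosome 1 from 118834132 to 119053619), was at 8.99, 8.92, 5.82 and 9.06 FPKM in wild type, 8.95, 7.68 and 13 FPKM in controls and 8.54, 7.93 and 10.4 FPKM in mutants. Wild-type replicate 3 was lowest and control replicate 3 highest, and the groups overlapped. The difference between mutants and controls was −0.11 on the log2 scale (SE 0.21, interval −0.62 to 0.40, limma adjusted p=0.81) and became 0.10 without control replicate 3. Against wild type it was 0.14 (SE 0.18), which became −0.013 without wild-type replicate 3. Between controls and wild type it was 0.25, and 0.040 without control replicate 3. Gli3, mainly a repressor in the absence of ligand (ENSMUSG00000021318.15, chromosome 13 from 15463235 to 15730026), was at 26.8, 26.1, 19.5 and 24.7 FPKM in wild type, 27.6, 22.9 and 26.6 FPKM in controls and 25.8, 24.3 and 24.5 FPKM in mutants. Mutant values of Gli3 lay close together and inside the range of both other groups. Its log2 fold change was −0.043 against controls (SE 0.087, interval −0.25 to 0.17) and 0.044 against wild type (SE 0.11, interval −0.22 to 0.31), with limma adjusted p-values of 0.828 and 0.962.

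Wild-type replicate 3 had the lowest value of the 10 libraries for Ptch1, Smo, Gli1, Gli2 and Gli3, 5 of the 7 members tested, and its summed level of 1002638 FPKM was the highest. The share of all genes lowest in this library is not given here. In the pathway lists described below, it was lowest for 8 of 20 genes of the intracellular relay and 2 of 9 of cilium transport. The numbers were 1 of 5 for ligand release, 0 of 6 for receptors and 1 of 7 for other responsive genes. Wild-type replicate 3 was also the only wild-type library with Y-linked transcripts at the level given above. When Y-linked expression entered the limma fit as a covariate, the mutants, which all carried Y-linked transcripts, were in effect compared with this single wild-type library. The log2 fold change against wild type was then 0.53 for Ptch1 (adjusted p=0.0148), 0.61 for Gli2 (adjusted p=0.05) and 0.35 for Gli3 (adjusted p=0.0309), each below 2-fold. Without wild-type replicate 3, these differences were 0.12, −0.013 and −0.057. Embryo sex and wild-type replicate 3 cannot be told apart here.

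Shh, Ptch1, Gli1 and Hhip, the ligand and 3 of its textbook targets, were compared across the 10 libraries as 6 pairs on the log2(FPKM+0.1) scale. None of the 6 Pearson or Spearman correlations passed after Benjamini-Hochberg adjustment over the pairs. For Shh and Ptch1, r was 0.58 (permutation p=0.0913, adjusted p=0.548) and rho was 0.33 (permutation p=0.35, adjusted p=0.946). With group means removed r was 0.62, and without wild-type replicate 1 and control replicate 3, the libraries farthest from the median of Shh, it was 0.37. For Shh and Gli1, r was −0.40 (permutation p=0.255, adjusted p=0.663) and rho was −0.32 (permutation p=0.368, adjusted p=0.946). That r was −0.26 with group means removed and 0.25 without the same libraries, and leaving out control replicate 3 alone gave 0.18. The other 4 pairs had r of 0.17 to 0.20, with permutation p-values of 0.572 to 0.663.

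The genes most like Shh and Gli1 across the 10 libraries were found among 14491 genes whose mean reached 0.5 FPKM, as a description in which the points share control replicate 3. For Shh, they were Gm10052, Slc7a8, Klhdc7a, Alx1 and Zfp143, with Pearson r of 0.97 to 0.98. Alx1, a homeobox gene, ranged from 2.56 to 13.4 FPKM, and Slc7a8, an amino acid transporter, from 2.25 to 6.14 FPKM. For Gli1, they included Gm2531, Fam227a, Gm49273 and Atxn7l2, with r of 0.93 to 0.94. Gli2 ranked 13th for likeness to Gli1 (r=0.90), whereas Gli3 ranked 970th (r=0.65) and Ptch1 5055th (r=0.19). Ptch1 ranked 2625th for likeness to Shh. Without control replicate 3, an alternative chosen after the data had been seen, r was 0.87 to 0.95 for the 5 genes named for Shh, with ranks of 2 to 23, and 0.89 to 0.94 for the 4 named for Gli1, with ranks of 2 to 18. Gli2 then ranked 43rd for Gli1 (r=0.86) and Ptch1 730th (r=0.66).

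The rest of the pathway was described with 5 lists of 50 genes, of which 49 were in the table and 47 were tested. Between Ntn1SPKO and control kidneys, 0 of 47 were called, 22 were higher and 25 lower, 5 had an unadjusted limma p under 0.05 (10.6%, beside 10.7% of all genes) and 7 had groups that did not overlap (14.9%, beside 19.9%). Against wild type, 0 of 47 were called in either comparison. In mutants, 2 genes had an unadjusted limma p under 0.05 (4.26%, beside 5.76% of all genes) and 3 had groups that did not overlap (6.38%, beside 7.1%). In controls, 1 gene had an unadjusted limma p under 0.05 (2.13%, beside 7.06%) and 4 had groups that did not overlap (8.51%, beside 8.09%). Without control replicate 3, 4 genes had an unadjusted limma p under 0.05 between mutants and controls (8.51%, beside 7.23% of all genes) and 8 did not overlap (17%, beside 25.6%). Between controls and wild type the numbers without this library were 2 (4.26%, beside 3.7%) and 6 (12.8%, beside 11.8%).

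In the lists of ligand release and of receptors, 0 of 11 genes tested had an unadjusted p under 0.05 in any comparison. Scube3, a secreted carrier that helps release Hedgehog ligands, was at 21.0 to 35.0 FPKM in wild type and 29.2 to 31.3 FPKM in mutants. In controls Scube3 was at 20.1, 30.1 and 11.5 FPKM, lowest in replicate 3. The co-receptor Gas1 was at 75.5 to 97.4 FPKM in wild type, 84.4 to 151 FPKM in controls and 87.3 to 98.5 FPKM in mutants, highest in control replicate 3. Boc, another co-receptor, was highest there as well, at 30.1 FPKM, and mutants were at 17.7 to 18.6 FPKM. Between mutants and controls, 2 of 6 receptor genes had groups that did not overlap (33.3%, beside 19.9% of all genes). Cdon, a co-receptor related to Boc, was at 14.1 to 14.6 FPKM in mutants and 15.2 to 25.4 FPKM in controls (log2 fold change −0.41), and Lrp2, the endocytic receptor megalin, at 0.893 to 0.969 FPKM and 0.648 to 0.830 FPKM (log2 fold change 0.26).

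Among 20 genes of the intracellular relay, 3 had an unadjusted limma p under 0.05 between mutants and controls (15%, beside 10.7% of all genes), and these and Gsk3b had groups that did not overlap (4 of 20, or 20%, beside 19.9%). Gpr161, a ciliary receptor that restrains the pathway, was at 9.51 to 10.7 FPKM in mutants and 8.30 to 9.04 FPKM in controls (log2 fold change 0.22, limma adjusted p=0.447). Tulp3, which carries receptors into the cilium, was at 32 to 35.8 FPKM in mutants and 36.5 to 40.8 FPKM in controls (log2 fold change −0.23, limma adjusted p=0.447). Efcab7, part of the complex that anchors Evc at the base of the cilium, was at 6.50 to 8.53 FPKM in mutants and 8.56 to 14.5 FPKM in controls, with a log2 fold change of −0.65 at the same adjusted p. Gsk3b, a kinase that takes part in the processing of Gli proteins, was at 55.1 to 65.8 FPKM in mutants and 50.03 to 54.6 FPKM in controls (log2 fold change 0.18). In the fit without control replicate 3, Tulp3 and Efcab7 had an unadjusted limma p under 0.05 and Gpr161 did not. Evc itself was at 10.9 to 13.4 FPKM in controls and 8.26 to 10.1 FPKM in wild type (log2 fold change 0.35, limma adjusted p=0.665). Iqce, a partner of Efcab7, was at 16.1 to 19.1 FPKM in mutants and 13.1 to 15.9 FPKM in wild type (log2 fold change 0.22, limma adjusted p=0.865). Of 9 genes of cilium transport, 0 had an unadjusted p under 0.05 in any comparison by limma.

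Of 8 other Hedgehog-responsive genes, 7 were tested, and Foxf2 was below 0.5 FPKM in every library. Between mutants and controls, 2 of 7 had an unadjusted limma p under 0.05 (28.6%, beside 10.7% of all genes) and 1 had groups that did not overlap (14.3%, beside 19.9%). When control replicate 3 was left out, 1 of 7 had such a p (14.3%, beside 7.23%). Ccnd2, a G1 cyclin, was at 171 to 178 FPKM in mutants and 136 to 162 FPKM in controls (log2 fold change 0.21, limma adjusted p=0.447). Mycn, a growth-promoting transcription factor, was at 42.8 to 47.0 FPKM in mutants and 28.2 to 44.4 FPKM in controls, which overlapped (log2 fold change 0.40), and was lowest in control replicate 3. Ccnd1, a cyclin related to Ccnd2, was at 118 to 133 FPKM in mutants and 135 to 152 FPKM in wild type (log2 fold change −0.23, limma adjusted p=0.621). Mutants and controls overlapped in Ccnd1, with control replicate 3 lowest at 76.8 FPKM. Control replicate 3 had the lowest value of the 10 libraries for 4 of these 7 genes, and the share of all genes lowest there is not given here.

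**Figure D5:**
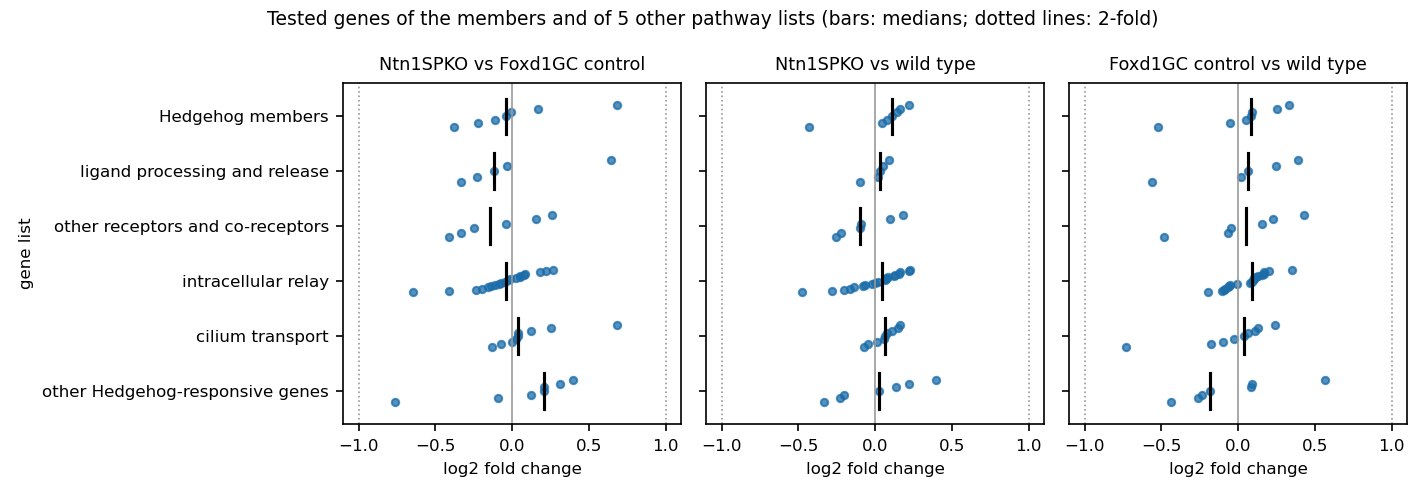
Log2 fold change of each tested member and of each tested gene of 5 other pathway lists in the 3 comparisons (points), with list medians (bars) and dotted lines at a 2-fold change. All points lie within 2-fold, and the median of each list lies between −0.18 and 0.20.

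Markers of muscle also differed between the libraries, and their part in the members' values was not tested. The summed level of 8 skeletal muscle markers was 37.9 to 91.2 FPKM in wild type, 27.2 to 357 FPKM in controls and 6.78 to 25.3 FPKM in mutants, and 7 of 8 had a mean of at least 0.5 FPKM. Smooth muscle markers, 7 genes with Myh11 below 0.5 FPKM throughout, summed to 62.7 to 72.5 FPKM in wild type, 64.3 to 171 FPKM in controls and 69.6 to 80.1 FPKM in mutants. Myocd, a coactivator of smooth muscle genes on this list, was at 2.601 to 3.61 FPKM in controls, 0.882 to 1.98 FPKM in wild type and 1.12 to 1.68 FPKM in mutants, and controls overlapped with neither other group. Its log2 fold change was −1.0 in mutants against controls (limma adjusted p=0.447) and 0.97 in controls against wild type (limma adjusted p=0.665), and it was highest in control replicate 1. Both lists were highest in control replicate 3, where Gli1, Gli2 and Dhh were also at their highest of the 10 libraries, at 15.9, 13 and 0.275 FPKM, and Shh at its lowest.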

How the data were processed

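RNA of whole E13.5 kidneys was sequenced by the study. According to its methods and the submitters' processing notes, reads were demultiplexed with bcl2fastq 2.17.1.14 and quantified by the authors with Salmon against coding sequences of GRCm38. The values the authors deposited are FPKM per gene, not counts, and were used as deposited (median-of-ratios factors were 1.002 in all 10 libraries). The members and gene lists were chosen with earlier results of these data known.

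For genes whose mean reached 0.5 FPKM over the libraries of a fit, log2(FPKM+0.1) values were compared in limma 3.58.1 under R 4.3.3 (eBayes with an intensity trend, Benjamini-Hochberg adjustment), for each comparison on its 2 groups. A fold change on this scale understates that of low genes. Exact permutation tests over libraries were two-sided (scipy 1.17.1), and correlations used permutation tests. The steps were tested on simulated data. Depth was estimated from FPKM times coding length over low genes, is rough, and speaks of counting error only. Same-numbered libraries did not deviate together (r from −0.039 to 0.078). Positions and sequences are from GENCODE M21 of GRCm38, with coordinates counted from 1. Named genes of the lists were those called, or with groups that did not overlap and an unadjusted p under 0.05, or up to 3 with the highest mean. Krt5, Trp63, Gata3, Krt18, Cdh1, Cdon, Lrp2, Gsk3b, Mycn, Tbx2, Tbx3 and the Tshz genes were named after their values had been seen. Some genes that this rule names are not reported here.

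Alternatives were other pseudocounts, filters, scalings and variance models, 1 fit over all libraries, the replicate number as a block, embryo sex as a covariate, other limits, and leaving out each library in turn. Counts over the pathway lists and the most similar genes were also computed without control replicate 3, an alternative added after the data had been seen.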

Additional observations from a re-analysis of the deposited data

Results flagged for a closer look

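Gli2 in wild-type replicate 3 was at 5.82 FPKM, while the other 3 wild-type libraries were at 8.92 to 9.06 FPKM. Its gap to the nearest of these was 0.958 of the range of the group, above Dixon's 95% limit for 4 samples. This was checked for all 9 members in wild type, the only group with enough libraries, and 1 was found. Chance alone gives about 1 such sample in 20 groups.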

How the results depend on the processing

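No member was called under any of the 20 alternatives run for Ntn1SPKO against Foxd1GC control, or the 21 run for each comparison with wild type. Of 411 alternative values of single members, 391 kept their direction and their side of the threshold, and the other 20 changed sign with no call on either side. The log2 fold change of Smo between mutants and controls was 0.029 after rescaling to the same summed FPKM. With embryo sex as a covariate, which in effect compares the mutants with control replicate 2 alone, it was −0.34 for Shh, 0.024 for Gli1, 0.21 for Gli2 and 0.12 for Gli3. When 1 library was left out, it ranged between mutants and controls from −0.12 to 0.010 for Gli3 (positive without control replicate 1), from −0.037 to 0.013 for Smo (positive without control replicate 2, mutant replicate 1 or mutant replicate 3) and from −0.27 to 0.10 for Gli2 (positive without control replicate 3). Between mutants and wild type it ranged from −0.013 to 0.22 for Gli2 and from −0.057 to 0.095 for Gli3 (both negative without wild-type replicate 3), and from −0.055 to 0.23 for Gli1 (negative without mutant replicate 3). Between controls and wild type it ranged from −0.31 to 0.089 for Hhip (positive without wild-type replicate 1 or control replicate 2 or 3), from −0.052 to 0.18 for Ptch1 (negative without wild-type replicate 3 or control replicate 1), from −0.015 to 0.17 for Gli3 (negative without wild-type replicate 3) and from −1.03 to 0.076 for Shh (positive without control replicate 3). Pearson's r ranged from −0.59 to 0.18 for Shh and Gli1, from −0.016 to 0.32 for Shh and Hhip, from −0.42 to 0.66 for Ptch1 and Gli1 and from −0.014 to 0.31 for Ptch1 and Hhip.

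The number of genes called over the whole table, 8, 7 and 1 in the 3 comparisons, was less stable, and the cause was not tested. Between mutants and controls it was 21 with no filter, 0 with all 10 libraries in 1 fit, 4 with the replicate block, 4 with embryo sex and 1551 at an unadjusted p under 0.05. Leaving out 1 library gave 3 to 78, with 16, 78 and 20 without control replicates 1, 2 and 3, and 21 and 3 without mutant replicates 1 and 2. Between mutants and wild type it was 2 with a pseudocount of 1, 18 with no filter, 12 with no intensity trend, 0 in 1 fit, 187 with embryo sex and 832 at an unadjusted p under 0.05. Leaving out 1 library gave 1 to 20, with 17 and 20 without wild-type replicates 3 and 4, and 19 and 1 without mutant replicates 1 and 2. Between controls and wild type it was 2 with a pseudocount of 1 or 0.01, 9 with no filter, 4 with no intensity trend, 0 in 1 fit, 0 with the replicate block and 1031 at an unadjusted p under 0.05. Leaving out 1 library gave 3 to 20, with 7, 4, 7 and 3 without wild-type replicates 1 to 4, and 10, 20 and 3 without control replicates 1 to 3. The labels do not say whether the replicate numbers pair the samples, and the replicate block called none of the members. Low depth limits Ihh and Dhh, which rest on a few fragments per library.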

Other observations

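Mesenchymal genes around the ureter differed in control replicate 3. The T-box factors Tbx2 and Tbx3 of ureteric mesenchyme were at 8.0 and 8.71 FPKM there, against 16.0 to 22.0 and 19.5 to 33.7 FPKM in the other 9 libraries. Of the other 3 genes of that list of 5, Tshz2 was at its highest of the 10 libraries there, at 36.5 FPKM, while Tbx18 at 10.3 FPKM and Tshz3 at 7.09 FPKM lay inside the range of the others. The summed level of 6 nephron progenitor markers was 363 FPKM in this library and 229 to 312 FPKM in the others. Acta2, the smooth muscle actin, was at 80.6 FPKM against 15.3 to 25.3 FPKM.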
